A study of Mus musculus with 12 samples.

Results

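Type 1 conventional dendritic cells (cDC1) were chosen by their RNA among the droplet barcodes of single-cell libraries made from the stromal vascular fraction (SVF) of mouse white fat. A barcode was taken as a cDC1 when it held 700 to 22000 unique molecular identifiers (UMIs, each standing for 1 captured RNA molecule), 200 to 6000 detected genes and less than 25% of UMIs from mitochondrially encoded genes. It also needed at least 1 UMI of Xcr1 or Clec9a and at least 1 of Irf8, with no UMI of Ccr7, of Cd3d, Cd3e and Cd3g, or of Lyve1 and Trem2. The rule found 770 cDC1 among the 126095 barcodes that passed the limits on UMIs, genes and mitochondrial share. The 9 genes of the rule are described below and were left out of every test.

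cDC1 are the dendritic cells that take up dying cells and load pieces of their proteins on MHC class I for CD8+ T cells, which is called cross-presentation. XCR1 is the receptor for a chemokine made by NK and CD8+ T cells, CLEC9A binds actin filaments bared by dead cells, IRF8 is the transcription factor that sets the lineage, and WDFY4 is needed to cross-present cell-borne antigen. White fat also holds type 2 conventional dendritic cells (cDC2), which chiefly present antigen on MHC class II to CD4+ T cells, and mature dendritic cells, which carry CCR7 and leave for the lymph node. On the mouse assembly GRCm38, GENCODE vM21 places Xcr1 at chr9:123852315-123862029 on the minus strand, Clec9a at chr6:129408862-129424763 and Irf8 at chr8:120736358-120756694, both on the plus strand, and Wdfy4 at chr14:32959547-33185508 on the minus strand.

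The 12 libraries came from epididymal (eWAT) and inguinal (iWAT) fat of male mice aged 12 weeks, with 2 biological replicates in each of 6 groups. WT-Veh mice were C57BL/6J and received vehicle by gavage for 3 days, ob/ob-Veh mice were Lepob/Lepob and received the same vehicle, and ob/ob-Rosi mice were Lepob/Lepob and received rosiglitazone, a PPARγ agonist, at 30 mg/kg in the morning and evening of those 3 days. Lepob is a germline mutation that leaves every cell of the mouse without leptin, dendritic cells included, so effects within these cells and effects of the obese animal cannot be told apart. Rosiglitazone-treated wild-type mice were not analysed here, and the tissue was digested with collagenase, with floating adipocytes removed. Each group has 2 replicates, which the study speaks of as individual mice, and the labels do not say whether the eWAT and iWAT libraries of a number came from the same mouse. Every p over both depots below treats the libraries of the depots as independent. If they shared mice, those p values could be too small.

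The labels were checked on the mutated gene. The Lepob mutation leaves the Lep transcript in place, and its level in fat of ob/ob mice is known to be raised. Per 100 UMIs of the adipocyte gene Adipoq, Lep stood at 20.1 to 42.5 UMIs in the 4 libraries labelled WT-Veh, 3.95 to 36.4 in the 4 labelled ob/ob-Veh and 141 to 390 in the 4 labelled ob/ob-Rosi. Pooled over depots, the libraries labelled ob/ob-Veh overlapped those labelled WT-Veh, while those labelled ob/ob-Rosi lay above both. In eWAT both ob/ob-Veh libraries (3.95 and 16.2) lay below both WT-Veh libraries (28.0 and 42.5), the reverse of the known rise. In iWAT the ob/ob-Veh libraries (36.4 and 15.1, on 4 and 8 UMIs of Lep) fell on either side of WT-Veh (20.1 and 31.6). Floating adipocytes had been removed, and these values rest on 4 to 277 UMIs of Lep a library. Trem2, a gene of lipid-laden macrophages, had a UMI in 57.7 to 94.6% of macrophages in WT-Veh, 6.57 to 29.6% in ob/ob-Veh and 62.1 to 96.0% in ob/ob-Rosi libraries. Every direction below is between libraries as labelled.

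Libraries held 20132553 to 92475986 UMIs in all. The cDC1 numbered 92 and 38 in eWAT WT-Veh, 117 and 74 in eWAT ob/ob-Veh, 53 and 46 in eWAT ob/ob-Rosi, 17 and 94 in iWAT WT-Veh, 26 and 28 in iWAT ob/ob-Veh, and 73 and 112 in iWAT ob/ob-Rosi (replicate 1, then replicate 2, here and below). iWAT WT-Veh replicate 1 stood apart with the fewest cDC1 and a median of 1132 UMIs per kept barcode, and both iWAT ob/ob-Veh libraries stood apart in mitochondrial share. There mitochondrially encoded genes gave 11.3 and 12.5% of cDC1 UMIs, against 1.87 to 7.78% in the other 10 libraries, and the median of all kept barcodes was also the highest, at 9.05 and 8.07% against 2.17 to 6.12%. All cDC1 of a library together held 62739 to 906400 UMIs, with the lowest sums in iWAT ob/ob-Veh and iWAT WT-Veh replicate 1, where 1 UMI was worth 13, 15.9 and 15 CPM, the count scaled to a library sum of 1000000. A cDC1 held a median of 4695 UMIs (lowest 760, highest 19750) and 1653 genes. No cDC1 barcode was shared between any of the 66 pairs of libraries, which with so few cDC1 could hardly come out otherwise. Among all kept barcodes a pair shared up to 3.72 times the number that the barcode pool gives. That pair was eWAT ob/ob-Veh replicate 1 and iWAT ob/ob-Rosi replicate 1 (94 against 25.3), and the cause was not tested.

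The label of the cells was checked on a list of 30 genes of cDC1 identity that the rule did not use. The 27 of them in the files summed to 3849 to 9404 CPM in cDC1, 4.73 to 11.1 times their level in the rest of the same library. At least 3 UMIs of the list were found in 97.0% of the cDC1, but also in 56.0% of macrophages, 52.4% of stromal barcodes and 45.6% of cDC2, since the list holds genes that other cells use, so the check rests on single genes. Wdfy4 had a UMI in 82.7% of cDC1, against 13.3% of cDC2, 14.5% of mature dendritic cells, 15.9% of macrophages (median 4469 UMIs, close to that of cDC1), 21.6% of B cells, 1.29% of endothelial and 1.32% of stromal barcodes. With every barcode thinned to 700 UMIs, these shares were 33.8% of cDC1, 3.39% of cDC2, 5.95% of mature dendritic cells, 2.31% of macrophages and 6.36% of B cells. Naaa, a lysosomal amidase, had a UMI in 88.2% of cDC1, against 39.3% of cDC2, 32.7% of macrophages and 28.1% of stromal barcodes. Cadm1, an adhesion molecule, had one in 57.4% of cDC1, 4.29% of cDC2 and 18.7% of macrophages. The label fitted these markers in the pooled barcodes, and the summed list exceeded the rest of the library in 12 of 12 libraries.

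Genes of the rule were present by choice. Clec9a had a UMI in 81.3% of cDC1 and Xcr1 in 56.1%, against 0.342 and 0.205% of macrophages. Xcr1 stood at 215 and 142 CPM in eWAT WT-Veh, 145 and 187 in eWAT ob/ob-Veh, 291 and 118 in eWAT ob/ob-Rosi, 330 and 118 in iWAT WT-Veh, 195 and 669 in iWAT ob/ob-Veh, and 144 and 191 in iWAT ob/ob-Rosi. Just inside the threshold, the 321 cDC1 with 1 UMI of Xcr1 and Clec9a together held 472 CPM of Wdfy4 and 732 of Naaa, and the 449 with 2 or more held 641 and 1073. Just outside it, the 5423 barcodes that met every other criterion but had no UMI of either gene held 48.5 CPM of Wdfy4. The 131 cDC1 with 1 UMI of Irf8 held 487 CPM of Wdfy4, and the 336 barcodes left out for having none held 178.

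The criterion on Lyve1 and Trem2 left out barcodes unevenly. It removed 33.8 and 66.4% of otherwise passing barcodes in eWAT WT-Veh, 19.3 and 18.7% in eWAT ob/ob-Veh, and 45.4 and 71.8% in eWAT ob/ob-Rosi. In iWAT it removed 29.2 and 16.1% in WT-Veh, 25.7 and 15.2% in ob/ob-Veh, and 36.5 and 26.8% in ob/ob-Rosi. The 450 barcodes left out for a UMI of either gene held 390 CPM of Wdfy4 and 1028 of the complement gene C1qa, and Trem2 UMIs were also found in 1.29 to 51.8% of endothelial barcodes, a cell type that should lack the gene. The shares and the numbers of cDC1 per cDC2 are therefore given with and without this criterion, and cycling cells with it alone.

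**Figure D1:**
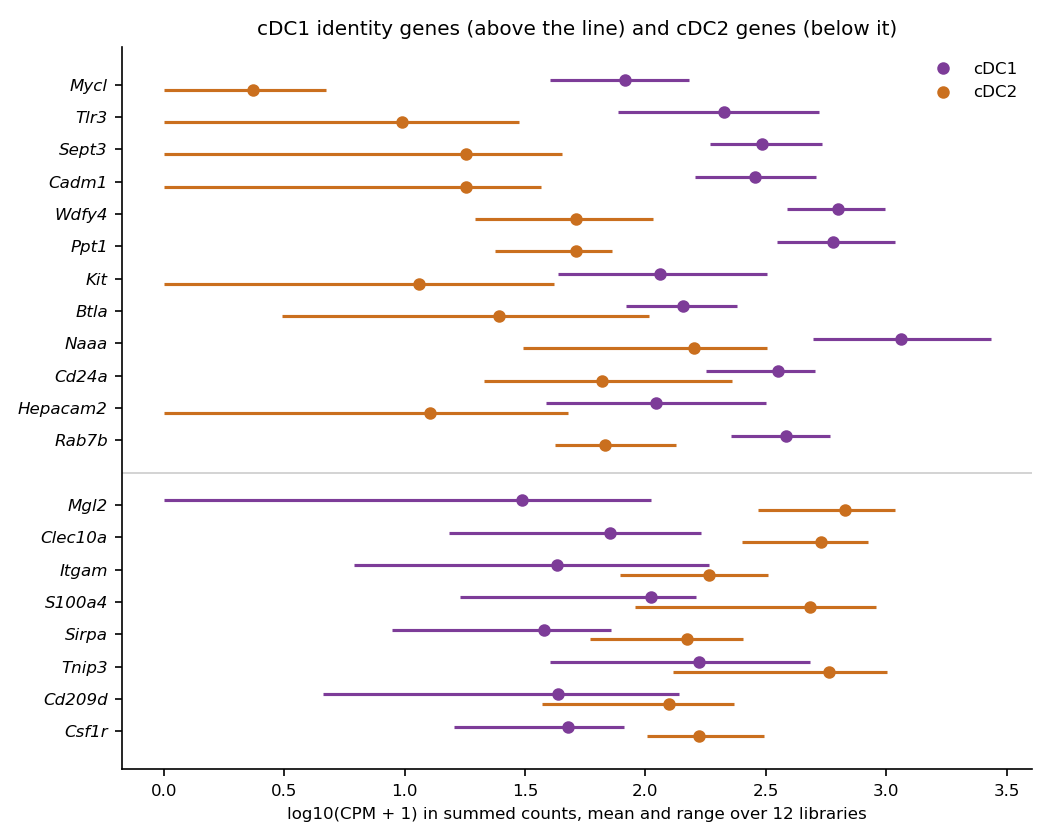
Level (log10 of CPM + 1, horizontal axis) of 12 cDC1 identity genes (above the line) and 8 cDC2 genes (below it) in cDC1 (purple) and cDC2 (orange), with the mean as a point and the range over the 12 libraries as a bar. Wdfy4 ranged over 388 to 988 CPM in cDC1 and 18.5 to 107 in cDC2.

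cDC1 were set beside the cDC2 of the same 12 libraries. These 1447 barcodes had UMIs of Cd209a and H2-Ab1 and none of Xcr1, Clec9a, Ccr7, Cd3d, Cd3e, Cd3g, Lyve1, Trem2, Adgre1, Fcgr1 and Ly6c2. Other macrophage genes were present in them, such as C1qa at 427 CPM, against 151 in cDC1. edgeR's quasi-likelihood test on UMI sums, with the library as a block, called 598 genes higher and 724 lower in cDC1 of 3515 tested (37.6%) where calls needed an adjusted p no larger than 0.05 and a 1.1-fold change or more. Both sets were chosen by other genes of the same barcodes, so these calls describe the sets and do not support their names. Of 17 identity genes tested, 16 were higher in cDC1, and 10 of 11 cDC2 genes were lower.

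Of 5 sensing genes tested 2 were higher and 2 lower in cDC1, and of 10 genes of dead cell uptake 2 were higher and 6 lower (median -1.03). Tlr3, the endosomal receptor for double-stranded RNA, was higher by 4.68 on the log2 scale (SE 0.23, adjusted p = 5.14e-12 by edgeR), at 210 CPM on average in cDC1 and 8.71 in cDC2. Wdfy4 was higher by 3.66 (SE 0.22), Cadm1 by 3.98 (SE 0.25) and Naaa by 2.81 (SE 0.17, 1153 against 158 CPM). Ppt1, a lysosomal thioesterase, was higher by 3.45 (598 against 50.3 CPM), and Havcr2, the gene of TIM-3, by 3.97. All of these were higher in cDC1 in 12 of 12 libraries.

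Of 24 genes of MHC class I and cross-presentation, 12 were higher in cDC1 and 5 lower, with a median of 0.33. Those higher included the peptide pump genes Tap1 (1.95, 219 against 55.4 CPM) and Tap2 (1.60), the immunoproteasome subunits Psmb9 (2.35) and Psmb8 (1.54), and Rab43 (1.80), a small GTPase of cross-presentation. Cybb, the catalytic subunit of the phagocyte NADPH oxidase, changed by -2.27 in cDC1, at 96.3 against 415 CPM. Among 12 genes of MHC class II, 4 were higher and 2 lower.

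Of 18 transcription factors of dendritic cells tested, 7 were higher in cDC1, 6 lower and 5 not called (median 0.261). Mycl, the MYC family member of dendritic cells, was higher in cDC1 by 4.93 (SE 0.26, 81.2 against 1.36 CPM), Id2 by 1.94 and Runx3 by 1.20. Batf3, needed to keep the cDC1 lineage, was higher by 0.91 and in 11 of 12 libraries, at 110 against 55.7 CPM. Zeb2, a factor of cDC2 and monocytes, changed by -2.60 (107 against 519 CPM). Of 16 growth factor and cytokine receptor genes tested, 4 were higher in cDC1 and 7 lower (median -0.249). Flt3, the receptor for the growth factor of dendritic cells, was higher by 1.33, and Kit by 3.32.

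Mgl2 and Clec10a, paired macrophage galactose lectins whose reads can be hard to tell apart, changed by -4.77 and -3.21. Of 16 genes of the TNF and NF-κB list 12 were lower in cDC1 and 1 higher (median -0.90), with Nfkbia, the NF-κB inhibitor, at 253 against 981 CPM, and of 24 dissociation genes 14 were lower and 2 higher. Of 20 lysosomal genes 14 were lower and 2 higher. Of 19 genes of PPAR and lipid handling 7 were lower and 3 higher (median -0.49), with Lpl, lipoprotein lipase, at 239 against 747 CPM (-1.66). Of 8 tested cell cycle genes 7 were higher in cDC1 with a median of 1.34, among them Mki67 (1.73, higher in 10 of 12 libraries). Of 9 stromal genes 9 were lower and of 14 macrophage genes 10 were lower.

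Mature dendritic cells, 269 barcodes with Ccr7 and Fscn1 or Ccl22, could be compared in 7 libraries, where 231 genes were higher (10.3%) and 196 lower in cDC1 of 2249 tested (19% in both directions). Tlr3 was higher in cDC1 by 4.97 (SE 0.58, adjusted p = 2.50e-04 by edgeR), Naaa by 3.76 (1069 against 81.3 CPM) and Wdfy4 by 3.04. The costimulatory receptor gene Cd40 changed by -2.96 (19.4 against 122 CPM), Fabp5, a fatty acid binding protein, by -4.18 and Arl5c by -5.03. Of 8 mature dendritic cell genes tested, 6 were lower in cDC1 and none higher, and of 13 genes of the NF-κB list 10 were lower and 1 higher.

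No difference between the labelled groups in the share of cDC1 among kept barcodes passed the test with all 12 libraries in the fit. It was 0.625 and 0.587% in eWAT WT-Veh, 1.28 and 0.955% in eWAT ob/ob-Veh, and 0.562 and 0.457% in eWAT ob/ob-Rosi. In iWAT it was 0.0996 and 0.956% in WT-Veh, 0.361 and 0.389% in ob/ob-Veh, and 0.755 and 0.640% in ob/ob-Rosi. In eWAT both ob/ob-Veh libraries lay above the other 4, whereas in iWAT the WT-Veh libraries fell on either side of the rest, and exact 95% binomial intervals ran from 0.058 to 0.159% for the lowest library and from 1.06 to 1.53% for the highest. These intervals cover counting error only.

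By edgeR's test on the counts of 9 classes, the ob/ob-Veh to WT-Veh ratio of the share over both depots was 0.20 on the log2 scale (SE 0.68, adjusted p = 0.772, exact permutation p = 0.611). For ob/ob-Rosi against ob/ob-Veh it was -0.12 (SE 0.68, adjusted p = 0.863, exact permutation p = 0.778). Within eWAT the values were 0.88 (SE 0.96, adjusted p = 0.831) and -1.13 (SE 0.96, adjusted p = 0.457), and within iWAT -0.48 (SE 0.97, adjusted p = 0.686) and 0.89 (SE 0.97, adjusted p = 0.473), all by edgeR. Within iWAT 4 of the 9 classes passed for ob/ob-Veh against WT-Veh (44.4%), cDC1 not among them. Over both depots the test passed 5 of the 9 classes (55.6%) for ob/ob-Veh against WT-Veh, cDC2 among them at 2.56 (SE 0.66, adjusted p = 0.00829), and 1 of 9 (11.1%), cDC2 at -2.34, for ob/ob-Rosi against ob/ob-Veh. Without the criterion on Lyve1 and Trem2 the cDC1 shares were 0.944 and 1.75%, 1.58 and 1.17%, and 1.03 and 1.62% in the 3 eWAT groups, so that eWAT ob/ob-Veh no longer lay above the others. In iWAT they were 0.141 and 1.14%, 0.486 and 0.458%, and 1.19 and 0.874%. The log2 ratios were then -0.19 and 0.53 over both depots, 0.04 and -0.06 in eWAT and -0.43 and 1.13 in iWAT, and none passed. The WT-Veh libraries of iWAT set some of these values. The fits that follow leave out 1 of them, so that group then holds 1 library and the spread comes from the other groups alone. With replicate 2 left out, the iWAT ratio of ob/ob-Veh to WT-Veh turned to 1.90 (adjusted p = 0.0123 by edgeR), resting on the 17 cDC1 of replicate 1, and with replicate 1 left out it was -1.35 and also passed. Without replicate 2 the ratios to WT-Veh over both depots also passed, at 1.39 for ob/ob-Veh and 1.27 for ob/ob-Rosi, as did iWAT against eWAT at -1.24. The eWAT ratio of ob/ob-Rosi to ob/ob-Veh stayed at -1.13 and passed when either library was left out.

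The number of cDC1 was also set against that of cDC2. There were 1.03 and 2.24 cDC1 per cDC2 in eWAT WT-Veh, 0.5 and 0.409 in eWAT ob/ob-Veh, and 0.791 and 1.21 in eWAT ob/ob-Rosi. In iWAT there were 0.195 and 1.54 in WT-Veh, 0.0798 and 0.155 in ob/ob-Veh, and 1.22 and 1.06 in ob/ob-Rosi. Within each depot the ob/ob-Veh libraries were the lowest of the 6, and ob/ob-Rosi libraries overlapped or lay within the range of WT-Veh. The cDC2 behind these ratios numbered 17 to 326 a library.

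Averaged over both depots, cDC1 per cDC2 was 4.08-fold lower in ob/ob-Veh than in WT-Veh (log2 -2.03, exact permutation p = 0.0556 within depots, two-sided). It was 4.70-fold higher in ob/ob-Rosi than in ob/ob-Veh (2.23, exact permutation p = 0.0556). This p is the smallest that permuting 2 libraries a group within depots allows, so this test cannot reach 0.05, and adjusted over 8 comparisons it was 0.222. The permutation also takes the eWAT and iWAT libraries as independent, which the labels do not settle. ob/ob-Rosi and WT-Veh differed by 0.21 (exact permutation p = 0.944). By depot, the first difference was -1.75 in eWAT and -2.31 in iWAT and the second 1.11 and 3.35, where the smallest exact p is 0.333. Thinned to 700 UMIs the pooled values were -1.69 and 1.74, and without the criterion on Lyve1 and Trem2 they were -2.20 and 2.45. With at least 2 UMIs of Xcr1 and Clec9a they were -1.88 (exact permutation p = 0.111) and 2.16 (exact permutation p = 0.0556). This ratio was chosen after the values of the shares had been seen. In every setting the cDC2 rule kept its criteria on Adgre1, Fcgr1 and Ly6c2, which the cDC1 rule does not have. The part of those criteria in the ratio was not tested.

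**Figure D2:**
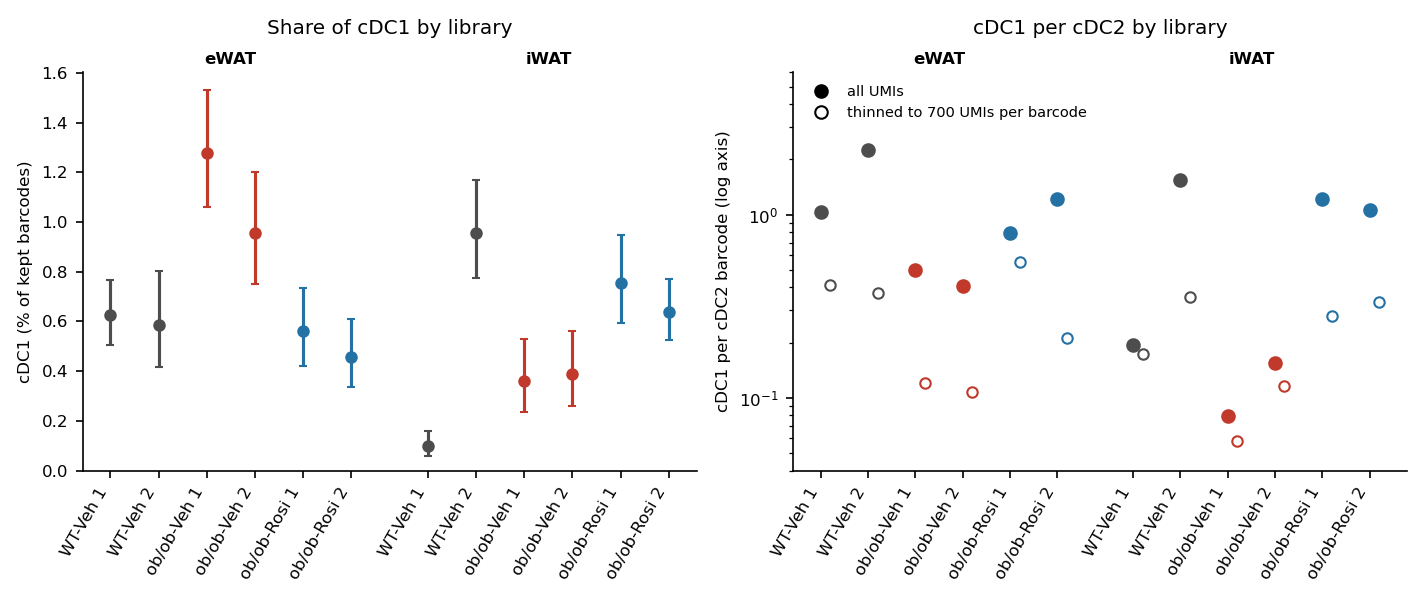
Share of cDC1 among kept barcodes in percent with its exact 95% interval (left) and cDC1 per cDC2 on a log axis (right; filled points all UMIs, open points thinned to 700 UMIs) for each library, with WT-Veh in grey, ob/ob-Veh in red and ob/ob-Rosi in blue. The ob/ob-Veh libraries hold 0.0798 to 0.5 cDC1 per cDC2, the lowest values of their depots.

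Cycling cDC1, defined by at least 2 UMIs over 12 mitosis and replication genes, made up 16.3 and 13.2% of cDC1 in eWAT WT-Veh, 27.4 and 23% in eWAT ob/ob-Veh, and 13.2 and 19.6% in eWAT ob/ob-Rosi. In iWAT they made up 29.4 and 10.6% in WT-Veh, 26.9 and 14.3% in ob/ob-Veh, and 15.1 and 21.4% in ob/ob-Rosi. ob/ob-Veh libraries lay above the others in eWAT, and the groups overlapped in iWAT. The share in ob/ob-Veh exceeded WT-Veh by 5.5 percentage points over both depots (exact permutation p = 0.389) and ob/ob-Rosi differed from ob/ob-Veh by -5.57 points (exact permutation p = 0.222). With every cDC1 thinned to 700 UMIs, cycling cells were 0 to 15.4% of a library's cDC1. The differences were then 3.64 and -4.29 points (exact permutation p = 0.389 for both). The smallest p that permuting 2 libraries a group within depots allows is 0.0556. This test therefore cannot pass, with or without thinning, and does not decide whether the share of cycling cells differs.

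Gene levels within cDC1 were compared on UMI sums per library, with 5204 genes tested. Log2 changes below are edgeR fits scaled by TMM, a normalization on the bulk of genes, and average both depots unless a depot is named, whereas CPM values are not TMM-scaled. Between ob/ob-Veh and WT-Veh, 537 genes were called (10.3%), 158 higher (3.04%) and 379 lower (7.28%) in ob/ob-Veh. Between ob/ob-Rosi and ob/ob-Veh, 613 were called (11.8%), 460 higher (8.84%) and 153 lower (2.94%) in ob/ob-Rosi. The shares of 10.3 and 11.8% are the background for the calls of each gene list over both depots. Groups of 4 libraries did not overlap for 10.5% of all genes in the former comparison and 13.5% in the latter, the background for statements on overlap over both depots. Within a depot, where groups hold 2 libraries, these shares were 51.7 and 35.4% in eWAT and 50.7 and 68.5% in iWAT. Lack of overlap within a depot is therefore common. These comparisons share the ob/ob-Veh libraries, so opposite signs in the pair are not independent. With library size alone in place of TMM the splits turned, to 563 higher and 183 lower and to 244 higher and 678 lower, and the median of all genes moved to 0.46 and -0.43.

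Ribosomal protein genes, which encode the subunits of the ribosome, were the group with the most calls. Of 80 tested, 76 fell in ob/ob-Veh against WT-Veh (median -1.67, against 0.04 for all genes) and none was higher. In ob/ob-Rosi against ob/ob-Veh, 75 rose (median 1.61, against -0.02) and none was lower. Both directions held with library size alone, with 71 lower (median -1.25) and 69 higher (1.19), and with DESeq2 (78 and 78).

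Rpl32, a protein of the large subunit, stood at 5204 and 6027 CPM in eWAT WT-Veh, 3840 and 3437 in eWAT ob/ob-Veh, and 3399 and 4590 in eWAT ob/ob-Rosi. In iWAT it stood at 4056 and 5891 CPM in WT-Veh, 598 and 303 in ob/ob-Veh, and 5997 and 5370 in ob/ob-Rosi. The iWAT ob/ob-Veh libraries lay far below the other 10. Rpl32 fell by 2.41 on the log2 scale in ob/ob-Veh (SE 0.33, adjusted p = 0.00245 by edgeR) and rose by 2.27 with rosiglitazone (SE 0.33, adjusted p = 0.00217 by edgeR).

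By depot, ribosomal protein genes separated. In iWAT 77 of 80 fell (median -2.74) and 79 rose with rosiglitazone (median 3.11). In eWAT edgeR called 0 in either comparison, with medians of -0.68 and 0.23, and DESeq2 called 0 as well. The eWAT Rosi median was 0.56 without ob/ob-Rosi replicate 1 and turned to -0.30 without replicate 2. At an unadjusted p under 0.05, edgeR found 4 lower in eWAT ob/ob-Veh and 0 changed in eWAT ob/ob-Rosi. The depot difference of the Rosi effect passed for 62 of the 80 and that of the ob/ob effect for none, with 69 at an unadjusted p under 0.05.

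The share of cDC1 UMIs from ribosomal protein genes was 27.4 and 30.7% in eWAT WT-Veh, 21.7 and 20.1% in eWAT ob/ob-Veh, and 17.5 and 27.7% in eWAT ob/ob-Rosi. In iWAT it was 19.0 and 30.1% in WT-Veh, 5.72 and 5.58% in ob/ob-Veh, and 29.2 and 31.0% in ob/ob-Rosi. The iWAT ob/ob-Veh libraries were also the lowest of their depot in the other classes compared. There cDC2 had 8.36 and 8.06% against 17.6 to 25.6% in the other iWAT libraries, macrophages 4.38 and 5.95% against 10.8 to 17.0%, and stromal barcodes 9.8 and 10.1% against 11.8 to 18.2%. Malat1, a nuclear RNA, took 3.03 and 3.98% of cDC1 UMIs there, the highest of the 12 libraries, against 0.893 to 2.9% in the others.

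**Figure D3:**
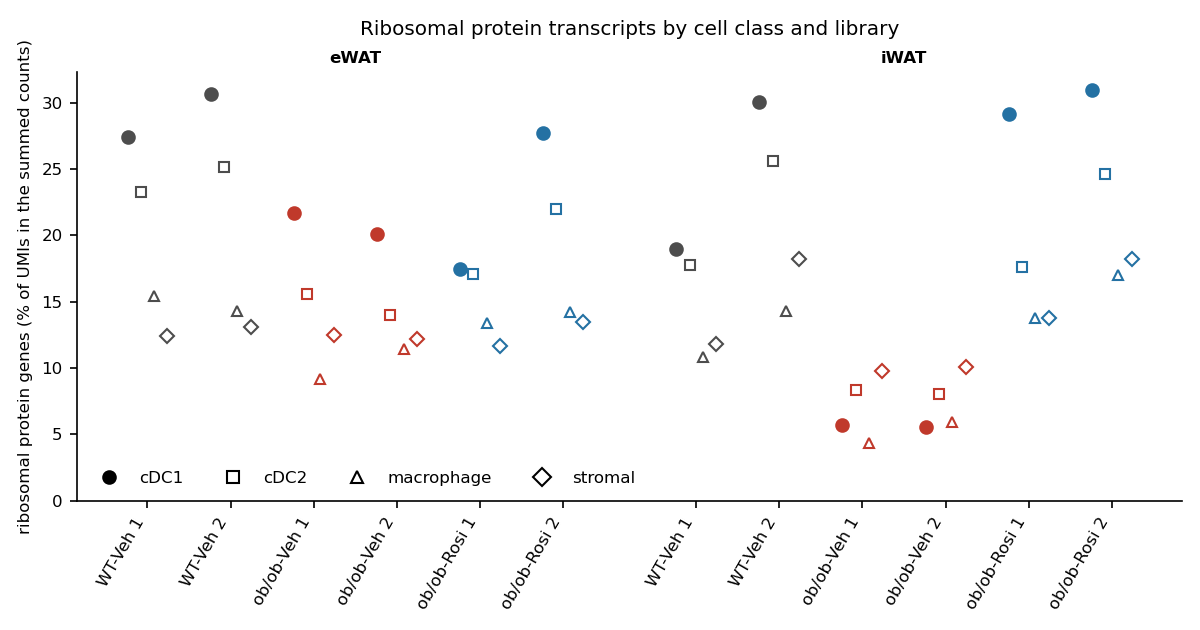
Percent of UMIs from ribosomal protein genes (vertical axis) in cDC1 (filled circles), cDC2, macrophages and stromal barcodes of each of the 12 libraries. In both iWAT ob/ob-Veh libraries the cDC1 value, 5.72 and 5.58%, is below that of the cDC2 (8.36 and 8.06%).

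Single barcodes showed the same split with a wide spread within libraries. The median ribosomal share of a cDC1 was 28.4 and 32.5% in eWAT WT-Veh, 21.6 and 18.2% in eWAT ob/ob-Veh, 10.2 and 28.3% in eWAT ob/ob-Rosi, 9.9 and 31.7% in iWAT WT-Veh, 3.45 and 5.39% in iWAT ob/ob-Veh, and 30.0 and 32.2% in iWAT ob/ob-Rosi. Barcodes under 10% made up 96.2 and 92.9% of cDC1 in iWAT ob/ob-Veh, but also 45.3% in eWAT ob/ob-Rosi replicate 1, 52.9% in iWAT WT-Veh replicate 1 and 43.2% in eWAT ob/ob-Veh replicate 2. In eWAT ob/ob-Veh, cDC1 with 10% or more mitochondrial UMIs had medians of 3.67 and 4.83%, and those below had 23.3 and 24.2%. A like split was seen in iWAT ob/ob-Rosi replicate 1 (10.7 against 31.0%, with 15 barcodes at or above the limit). It was also seen in eWAT WT-Veh replicate 2 (12.4 against 33.7%, 4 barcodes) and iWAT WT-Veh replicate 2 (15.6 against 31.7%, 3 barcodes). No such split was seen in eWAT ob/ob-Rosi replicate 1, with 10.3% at or above that limit and 10.1% below it, or in iWAT WT-Veh replicate 1, with 9.3 and 10.5%.

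The ribosomal calls were therefore repeated on cDC1 under 10% mitochondrial UMIs, a limit chosen after the data had been seen. It left 7 and 7 cDC1 in iWAT ob/ob-Veh, with median ribosomal shares of 3.9 and 5.88%. There 67 ribosomal protein genes fell (median -1.57) and 64 rose with rosiglitazone (1.49). With barcodes thinned to 700 UMIs none passed over both depots (medians -1.23 and 0.98), while in iWAT 5 of 76 fell (median -1.74) and 33 rose (1.87). On the thinned barcodes the rule was applied again, leaving 8 to 27 cDC1 a library, and the 2 libraries under 10 were dropped, so depth and membership changed together. Without iWAT ob/ob-Veh replicate 1, 55 fell and 59 rose over both depots, while in iWAT alone 1 fell at a median of -2.86 and 73 rose at 3.16. Without replicate 2, 59 fell and 58 rose over both depots, and in iWAT 46 fell at -2.75 and 70 rose at 3.19. Without iWAT WT-Veh replicate 2, which leaves 1 library in that group, the medians of ob/ob-Veh against WT-Veh were -1.36 over both depots and -2.07 in iWAT. The part of mitochondrial share and of the other classes' like values in the ribosomal result was not tested.

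**Figure D4:**
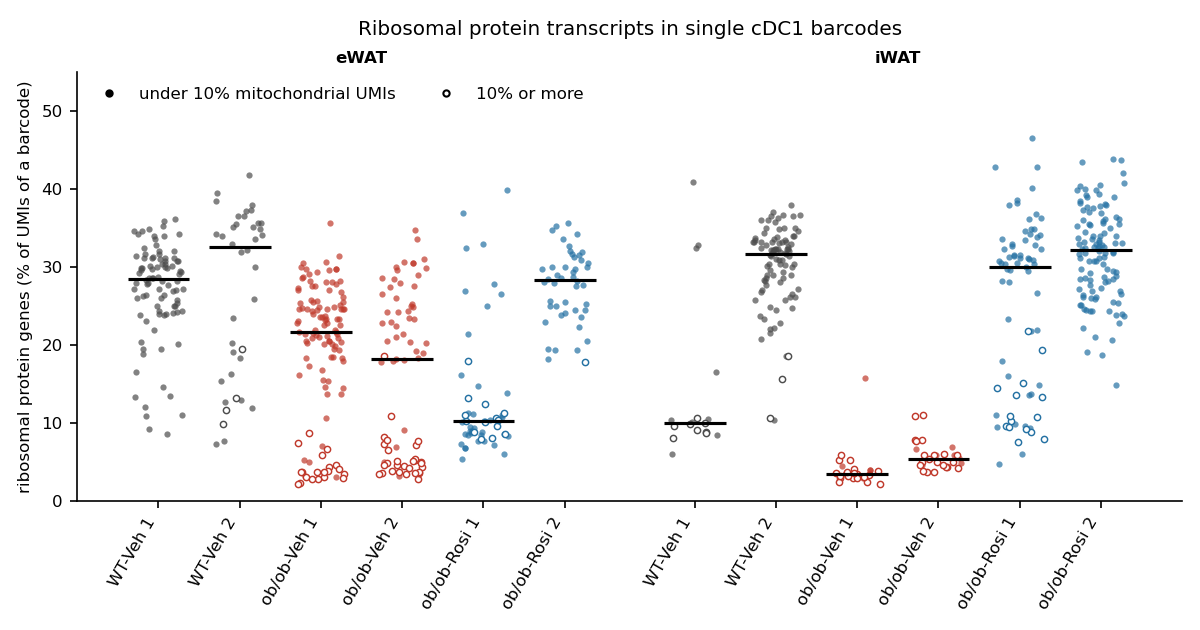
Ribosomal protein share of UMIs (percent) of every cDC1 barcode by library, filled under 10% and open at 10% or more mitochondrial UMIs, with the library median as a bar. Almost all barcodes of iWAT ob/ob-Veh lie under 10%, with medians of 3.45 and 5.39%.

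Genes of oxidative phosphorylation, nuclear-encoded subunits of the respiratory chain, moved with the ribosomal ones. Of 75 tested, 41 fell in ob/ob-Veh (median -1.14) and 48 rose in ob/ob-Rosi against ob/ob-Veh (1.3), with none the other way. With library size alone 15 fell and 27 rose. Atp5g1, a subunit of ATP synthase, stood at 267 and 194 CPM in eWAT WT-Veh, 145 and 133 in eWAT ob/ob-Veh, 185 and 239 in eWAT ob/ob-Rosi, 30.0 and 170 in iWAT WT-Veh, 26.0 and 0 in iWAT ob/ob-Veh, and 253 and 235 in iWAT ob/ob-Rosi. It changed by -2.33 (SE 0.51, adjusted p = 0.00930) and 2.73 (SE 0.49, adjusted p = 0.00338 by edgeR), and the 26.0 CPM in iWAT rest on 2 UMIs. Of 50 translation factors 12 fell and 14 rose with 1 lower, among them the elongation factor gene Eef1b2 (-2.09 and 2.00). Of all genes 10.3 and 11.8% were called in these comparisons. The 13 mitochondrially encoded genes had no call in ob/ob-Veh (median 0.69), and 1 fell with rosiglitazone. In eWAT no oxidative phosphorylation gene was called, with 5 lower and 4 higher at an unadjusted p under 0.05.

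Some transcripts of MHC class II antigen presentation were lower in ob/ob-Veh. Of 13 genes tested 5 fell (median -0.87), where 10.3% of all genes were called, and 5 rose with rosiglitazone (0.89), where 11.8% were. H2-DMb1, a chain of the peptide loader H2-M, stood at 710 and 784 CPM in eWAT WT-Veh, 437 and 512 in eWAT ob/ob-Veh, and 583 and 996 in eWAT ob/ob-Rosi. In iWAT it stood at 646 and 722 CPM in WT-Veh, 208 and 335 in ob/ob-Veh, and 553 and 783 in ob/ob-Rosi. The ob/ob-Veh libraries were below all others over both depots, with changes of -1.38 (SE 0.31, adjusted p = 0.00987) and 1.42 (SE 0.30, adjusted p = 0.00716 by edgeR).

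H2-Oa, a chain of the brake on that loader, changed by -2.44 (SE 0.53, adjusted p = 0.00860) and 1.99 (adjusted p = 0.0246 by edgeR). It had 13 and 15.9 CPM in iWAT ob/ob-Veh, which is 1 UMI each, and 39.7 to 175 in the other libraries. The invariant chain gene Cd74 changed by -1.18 and 1.23 and H2-Eb1, an MHC class II chain, by -1.09 in ob/ob-Veh. Without iWAT ob/ob-Veh replicate 1 no gene of the list passed in ob/ob-Veh, at a median of -0.71, and with library size alone 2 fell (median -0.47). No gene of the list was called within eWAT, where the medians were -0.61 and 0.78.

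Of 17 genes of the shared dendritic cell programme, 5 fell and 1 rose in ob/ob-Veh (median -0.52), where 10.3% of all genes were called. With rosiglitazone 5 rose and 2 fell (0.76), where 11.8% were called. The list also holds MHC class II genes, H2-DMb1, Cd74 and H2-Eb1 among them, so its counts are not separate from those above. Cst3, cystatin C, stood at 14513 to 21092 CPM in the libraries of WT-Veh and eWAT ob/ob-Veh and at 4409 and 8559 in iWAT ob/ob-Veh. It changed by -1.28 (SE 0.32, adjusted p = 0.0178) and 1.42 (SE 0.32, adjusted p = 0.00904 by edgeR). Spi1, the PU.1 transcription factor, changed by -1.34 and 1.35, and Bcl11a, another factor of the list, went the other way at 1.34 and -1.31. Flt3 was at 0.29 in ob/ob-Veh (adjusted p = 0.595 by edgeR).

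Calls among identity genes of cDC1 were few. Of 23 tested 1 passed in each comparison, the lipid phosphatase gene Plpp1 (-1.36, adjusted p = 0.0231, and 1.19, adjusted p = 0.0344 by edgeR), and the list's medians were 0.15 and 0.15. Of all genes 10.3 and 11.8% were called, so a count this small does not set the list apart. On simulated counts the ob/ob-Veh fit recovered 17% of 2-fold changes, so changes of that size could be missed. Wdfy4 had 417 and 515 CPM in eWAT WT-Veh, 712 and 729 in eWAT ob/ob-Veh, 742 and 435 in eWAT ob/ob-Rosi, 961 and 606 in iWAT WT-Veh, 585 and 988 in iWAT ob/ob-Veh, and 473 and 388 in iWAT ob/ob-Rosi. In iWAT WT-Veh and ob/ob-Veh overlapped and both ob/ob-Rosi libraries lay below them, and in eWAT ob/ob-Veh and ob/ob-Rosi overlapped. Tlr3 was at 0.78 in ob/ob-Veh (adjusted p = 0.144 by edgeR), with 75.6 to 285 CPM in WT-Veh and 179 to 526 in ob/ob-Veh.

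Calls among cross-presentation genes fell on either side. Of 27 tested, 5 fell and 1 rose in ob/ob-Veh (median -0.03, against 0.04 for all genes), where 10.3% of all genes were called. In ob/ob-Rosi against ob/ob-Veh 5 rose and 2 fell (-0.04), where 11.8% were called. Both directions were called for proteasome genes: Psmb8 changed by -1.73 (SE 0.38) and 1.85 (SE 0.38), and the activator subunit Psme1 by -1.89 (SE 0.40) and 1.74. Psmb8 stood at 929 and 605 CPM in eWAT WT-Veh, 460 and 400 in eWAT ob/ob-Veh, 503 and 875 in eWAT ob/ob-Rosi, 285 and 772 in iWAT WT-Veh, 208 and 95.6 in iWAT ob/ob-Veh, and 697 and 763 in iWAT ob/ob-Rosi. H2-Q6, a nonclassical class I gene whose reads cannot be told surely from its near copies, went the other way at 2.16 (SE 0.45, adjusted p = 0.00646) and -2.09 (SE 0.41, adjusted p = 0.00435 by edgeR). It had 4.30 to 30.0 CPM in WT-Veh, 53.0 to 112 in ob/ob-Veh and 8.83 to 15.7 in ob/ob-Rosi.

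Of 21 lipid and PPAR genes tested, 4 fell and 1 rose in ob/ob-Veh (23.8% called, against 10.3% of all genes), and with rosiglitazone 3 rose and 1 fell (19.0%, against 11.8%). Fabp5, a target of PPAR receptors, stood at 258 and 161 CPM in eWAT WT-Veh, 18.8 and 9.35 in eWAT ob/ob-Veh, and 265 and 125 in eWAT ob/ob-Rosi. In iWAT it stood at 30.0 and 85.2 CPM in WT-Veh, 78.0 and 31.9 in ob/ob-Veh, and 121 and 40.8 in ob/ob-Rosi. The ob/ob-Veh libraries of eWAT were the lowest, and no depot difference passed for Fabp5. Of all genes tested, 51.7% had no overlap between ob/ob-Veh and WT-Veh in eWAT and 35.4% none between ob/ob-Rosi and ob/ob-Veh. The pooled changes were -2.46 (SE 0.47, adjusted p = 0.00511) and 2.41 (SE 0.47, adjusted p = 0.00389 by edgeR). In the rest of eWAT libraries the macrophage list was also lowest in ob/ob-Veh, at 8243 and 12100 CPM against 37550 to 43490. In iWAT it was 10560 and 9613 CPM in ob/ob-Veh and 14880 to 24610 in the others. The part of macrophage RNA in the Fabp5 values was not tested. Ucp2, an inner mitochondrial carrier, changed by -1.56 and 1.68, Fabp4 by -1.28 and 1.61, and the cholesterol exporter gene Abca1 by -1.84 with rosiglitazone. Pparg itself, the receptor that rosiglitazone binds, had 2.2 to 35.3 CPM in the 12 libraries.

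Transcription factors rose in 3 cases of 21 in ob/ob-Veh and fell in 1, and in ob/ob-Rosi 2 rose and 5 fell. Beside these counts, 10.3 and 11.8% of all genes were called. Tcf4, a factor of plasmacytoid dendritic cells, had 60.7 to 113 CPM in WT-Veh, 191 to 689 in ob/ob-Veh and 67.8 to 185 in ob/ob-Rosi, with changes of 1.74 (SE 0.36, adjusted p = 0.00668) and -1.34 (adjusted p = 0.0180 by edgeR). The plasmacytoid list, which holds Tcf4, summed to 271 to 590 CPM in WT-Veh cDC1, 539.5 to 1340 in ob/ob-Veh and 299.8 to 521 in ob/ob-Rosi (medians 1.05 and -1.2, 1 of 7 genes called in each). Zeb2 changed by 1.41 and -1.27. The cDC2 and monocyte lists, of cells in which Zeb2 is high, had medians of 0.67 and 1.39 in ob/ob-Veh and -0.58 and -1.3 with rosiglitazone. The part of RNA from those cells in these changes was not tested. Of 17 cell cycle genes tested 2 rose in ob/ob-Veh, Mki67 by 1.36 (SE 0.35, adjusted p = 0.0212 by edgeR) and Top2a by 1.19, with a list median of -0.28. In that comparison 10.3% of all genes were called, so the count for this list lies near the share of all genes. Mki67 stood at 43.9 to 94.6 CPM in WT-Veh and 153 to 286 in ob/ob-Veh.

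Chemokine and interferon genes gave single calls. Ccl2, which draws monocytes, had 9.45 to 47.3 CPM in WT-Veh, 74.8 to 159 in ob/ob-Veh and 8.83 to 26.7 in ob/ob-Rosi, and changed by 1.77 (adjusted p = 0.0202) and -2.20 (SE 0.47, adjusted p = 0.00705 by edgeR). Cxcl9, an interferon-induced chemokine that draws T cells, rose by 3.25 with rosiglitazone (SE 0.88, adjusted p = 0.0244 by edgeR). Its level rested on replicate 1 of each depot, with 742 and 481 CPM, while replicate 2 had 10.7 and 33.0. Gbp2, an interferon-induced GTPase, rose by 3.04 with 203 and 74.0 CPM in the same 2 libraries. Of 10 sensing genes and 17 receptor genes edgeR called none in either comparison, with 1 and 1 at an unadjusted p under 0.05 in ob/ob-Veh, and DESeq2 called none.

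Of 24 genes that respond to tissue dissociation, 7 rose in ob/ob-Veh (median 0.62) and none fell, where 10.3% of all genes were called. With rosiglitazone 6 fell (-0.57), where 11.8% were called, and with library size alone 12 rose and 14 fell. Hspa1b, an inducible HSP70 whose reads can be split with its near-identical neighbour Hspa1a, stood at 25.8 and 9.45 CPM in eWAT WT-Veh, 149 and 72.9 in eWAT ob/ob-Veh, 17.7 and 35.7 in eWAT ob/ob-Rosi, 45.1 and 71.0 in iWAT WT-Veh, 676 and 717 in iWAT ob/ob-Veh, and 24.7 and 22 in iWAT ob/ob-Rosi. It changed by 2.63 (SE 0.38, adjusted p = 0.00245) and -3.02 (SE 0.37, adjusted p = 6.93e-04 by edgeR). Egr1, an immediate early factor, had 94.5 to 180 CPM in WT-Veh and 494 to 929 in ob/ob-Veh, and changed by 2.04 (SE 0.33, adjusted p = 0.00277) and -1.57 (adjusted p = 0.00507 by edgeR).

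Genes typical of other cell types differed in level between libraries in the cDC1 sums as well. The stromal list summed to 1081 to 3200 CPM in WT-Veh cDC1, 5210 to 9637 in ob/ob-Veh and 885 to 4891 in ob/ob-Rosi, which was 0.0616 to 0.327 of its level in the rest of the same library, and 3 of its 9 genes rose in ob/ob-Veh, Dcn by 1.87 among them. The genes of largest rise in ob/ob-Veh included Scara5 (3.24, SE 0.53, adjusted p = 0.00277 by edgeR), Adamts5 (3.34) and Dpt (2.49), which in the rest of the libraries stood at 450, 921 and 1518 CPM in ob/ob-Veh and 84.4, 171 and 247 in WT-Veh. The macrophage list summed to 4011 to 7354 CPM in WT-Veh, 2469 to 5254 in ob/ob-Veh and 5756 to 10240 in ob/ob-Rosi, 0.169 to 0.498 of the rest. Lgals3, galectin-3, fell by 2.17 (SE 0.34, adjusted p = 0.00277) and rose by 2.63 (SE 0.34, adjusted p = 0.00107 by edgeR), beside 3275 CPM in ob/ob-Rosi and 217 in ob/ob-Veh in the rest of the libraries. The monocyte list summed to 279 to 576 CPM in WT-Veh, 845 to 2991 in ob/ob-Veh and 239 to 627 in ob/ob-Rosi, and the cDC2 list to 998 to 1652, 1365 to 2653 and 885 to 1589 CPM, with 1 gene of each called higher in ob/ob-Veh. The endothelial list, which holds Fabp4, summed to 916 and 539 CPM in eWAT WT-Veh, 182 and 275 in eWAT ob/ob-Veh, 689 and 1892 in eWAT ob/ob-Rosi and 1637 to 2583 in iWAT. In iWAT ob/ob-Veh replicate 1 that was 3.89 times its level in the rest (1782 against 458 CPM), and in the other libraries 0.0421 to 0.498 of it. Of its 6 genes 3 rose with rosiglitazone (median 1.77). The adipocyte list summed to 0 to 63.8 CPM in cDC1, 0 to 0.647 of its level in the rest, with 0 UMIs of its gene Plin1. T and NK cell genes summed to 3.57 to 180 CPM, and the part of free RNA in these calls was not tested.

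Further genes named by the size of their change came from many functions. Lower in ob/ob-Veh were Sec61g (-2.00), a subunit of the translocon at the endoplasmic reticulum, and Rgs10 (-1.97), a regulator of G protein signalling. Higher were Ackr3 (2.92), an atypical chemokine receptor, Dgat1 (2.86), which makes triglyceride, and Raph1 (2.48), an actin regulator. In ob/ob-Rosi against ob/ob-Veh, Slc5a3 (-2.41), a myo-inositol transporter, and Thbd (-2.16), thrombomodulin, fell. Nhp2, Ssbp4 and Bax were called lower in ob/ob-Veh, and Ndufv1, Ndufv2, Mrpl18 and Glipr1 higher with rosiglitazone. Those 7 had at most 3 UMIs in the cDC1 of both iWAT ob/ob-Veh libraries together, so no size is given for them. Genes of this paragraph were chosen for groups that did not overlap.

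**Figure D5:**
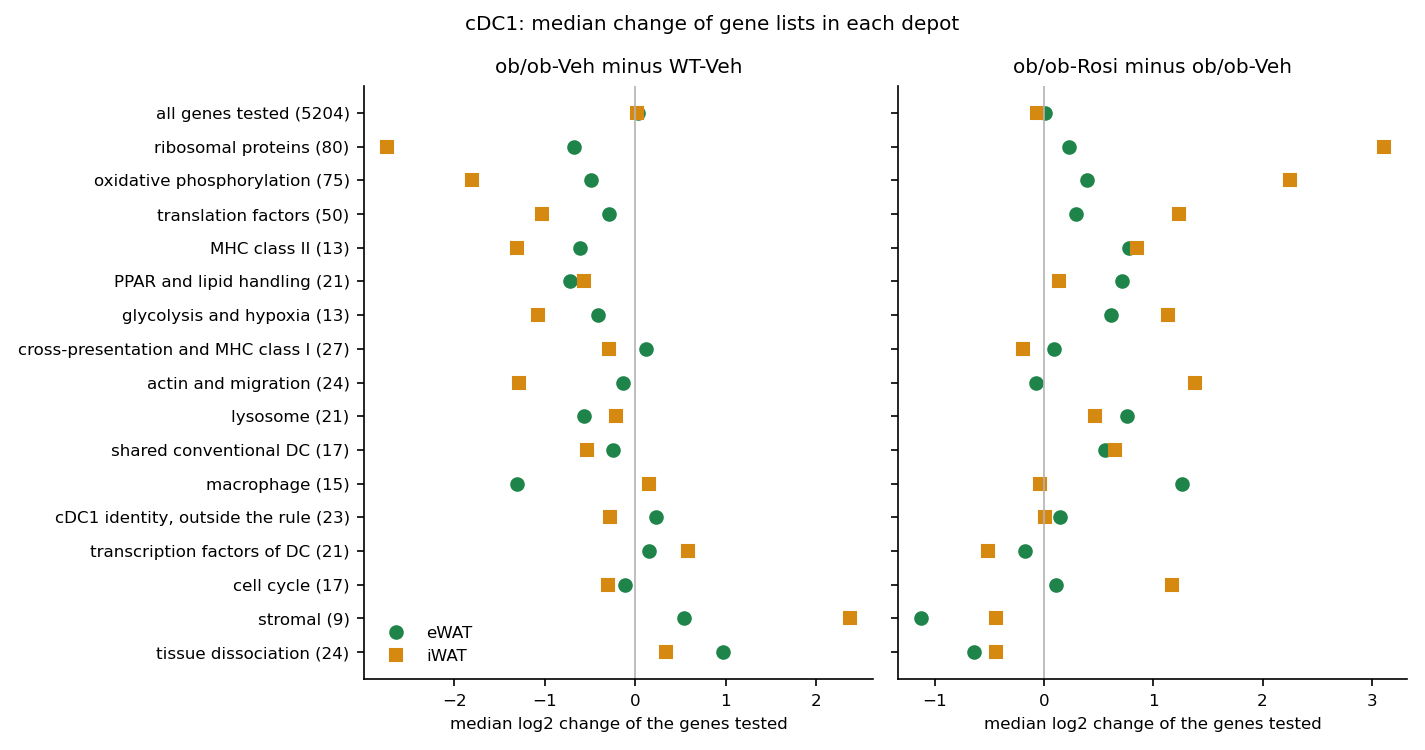
Median log2 change (horizontal axis) of all genes tested and of gene lists, with the number of genes in parentheses, in cDC1 of eWAT (green circles) and iWAT (orange squares), for ob/ob-Veh minus WT-Veh (left) and ob/ob-Rosi minus ob/ob-Veh (right). The ribosomal protein medians, -2.74 and 3.11 in iWAT and -0.68 and 0.23 in eWAT, lie farthest apart between depots among the lists drawn in the right panel.

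Within eWAT alone 10 genes were called between ob/ob-Veh and WT-Veh (0.192%) and 12 between ob/ob-Rosi and ob/ob-Veh (0.231%). In ob/ob-Veh, Egr1 rose by 2.45 (adjusted p = 0.0258) and Lyz1, a lysozyme with a near copy in Lyz2, by 2.85 (adjusted p = 0.0356 by edgeR), from 55.9 and 33.1 CPM to 307 and 449. Cd63, a tetraspanin of late endosomes, fell by 2.26 (adjusted p = 0.0153 by edgeR), from 254 and 321 CPM to 71.7 and 65.4, and rose again with rosiglitazone by 2.04 (adjusted p = 0.0341 by edgeR). Fabp5 fell by 3.99 (adjusted p = 0.00476) and rose by 3.70 (adjusted p = 0.0126 by edgeR). Gpnmb fell by 3.94 (adjusted p = 0.00476 by edgeR), from 107.5 and 109 CPM to 6.62 and 9.35, and rose by 4.15, and C1qb rose by 3.25. Both are macrophage genes, and the macrophage list of 18 genes moved alike outside cDC1: it summed to 39650 to 43490 CPM in the rest of eWAT WT-Veh libraries, 8243 to 12100 in ob/ob-Veh and 37550 to 39200 in ob/ob-Rosi. In cDC1 it summed to 7094 to 7354, 2469 to 4736 and 7275 to 10240 CPM, with medians of -1.31 and 1.26 over 15 genes tested. The part of macrophage RNA in these changes, and in those of Fabp5 and Cd63, was not tested. Igkc, an antibody light chain, was called lower with rosiglitazone, but 4308 of its 4424 UMIs in eWAT ob/ob-Veh replicate 2 lay in 1 barcode.

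Within iWAT 378 genes were called between ob/ob-Veh and WT-Veh (7.26%), 78 higher (1.5%) and 300 lower (5.76%), and 640 between ob/ob-Rosi and ob/ob-Veh (12.3%), 484 higher (9.3%) and 156 lower (3%). Without iWAT ob/ob-Veh replicate 1 a single gene was called in the former. Higher in ob/ob-Veh were Fbn1 and Igfbp5. Fbn1, fibrillin, stood at 728 and 95.6 CPM there and at 0 and 3.87 in WT-Veh, and Igfbp5 at 767 and 255 CPM against 15 and 25.8 (3.80, adjusted p = 0.00161 by edgeR). Of the 9 stromal genes 5 rose (median 2.37). On the lower side Bcl2a1d, an anti-apoptotic BCL2 relative with near-identical copies, stood at 26.0 and 0 CPM in ob/ob-Veh and at 75.1 and 261 in WT-Veh, and Eif3m, an initiation factor, at 13 and 31.9 against 90.1 and 280. With rosiglitazone Hspa1b fell by 4.25 (adjusted p = 1.88e-04) and Hspa1a by 3.28 (adjusted p = 5.03e-04 by edgeR), and Slc22a23, a solute carrier, went from 104 and 112 CPM to 6.17 and 11. Many genes higher with rosiglitazone had no UMI in the 26 and 28 cDC1 of iWAT ob/ob-Veh, so their fitted changes have no bound and are not given.

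The depot difference of the Rosi effect passed for 111 genes (2.13%). The signed log2 change was higher in iWAT than in eWAT for 106 of them and lower for 5. The 106 included 62 ribosomal protein genes and 8 of oxidative phosphorylation, such as Rpl32 (4.02, SE 0.66, adjusted p = 0.00742 by edgeR) and Cox7b (4.16), as well as Tmsb10 (4.15), an actin monomer binder. The 5 were Mmp3, Pla2g7, C1qc, C1qa and Cd36, of which C1qa (-3.13) and C1qc (-3.41) are macrophage complement genes. Of the ob/ob effect no depot difference passed by edgeR, with 161 genes at an unadjusted p under 0.05 in one direction and 383 in the other.

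Between depots over all conditions 5 genes were called (0.0961%), 4 higher (0.0769%) and 1 lower (0.0192%) in iWAT. Igfbp5, an IGF binding protein, was higher in iWAT by 4.08 (SE 0.48, adjusted p = 3.86e-04 by edgeR, 223 against 7.88 CPM), Retnla by 2.53, Pi16 by 2.33 and Fabp4 by 1.66 (1776 against 639 CPM), and Mgp was lower (-3.43). In the rest of the libraries all 5 lay on the same side.

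Comparing ob/ob-Rosi with WT-Veh, edgeR found 0 of 5204 genes to pass (0%), where an unadjusted p fell under 0.05 for 73 on the higher and 35 on the lower side, and DESeq2 called 0 as well. Ribosomal protein genes had a median of -0.02 in this comparison. The smallest p values belonged to Aqp1, Smoc2, Cxcl10, Ly6c1 and Ramp2 on the higher side and Hbb-bs, Ptpn2, Cavin1, Angptl4 and Trib1 on the lower, all at an adjusted p of 0.9996, so none passed. Cxcl10, another interferon-induced chemokine, stood at 291 and 146 CPM in replicate 1 of eWAT and iWAT ob/ob-Rosi, the libraries that were also high in Cxcl9.

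Whether the ob/ob-Veh difference was larger in cDC1 than in cDC2 was tested as an interaction with the library as a block. It passed for 9 of 6665 genes (0.135%), with 707 at an unadjusted p under 0.05. Cytip, a regulator of leukocyte adhesion, Dusp2, a phosphatase of MAP kinases, P2ry10, Arl5c and Cks2 had the higher change in cDC1. Cytip stood at 718 and 803 CPM in eWAT WT-Veh cDC1 and 1174 and 890 in eWAT ob/ob-Veh, and in cDC2 of the same libraries at 479 and 532 and then 379 and 248, with a difference of 1.57 between the changes (SE 0.25, adjusted p = 0.00727 by edgeR). Dusp2 differed by 3.34 (SE 0.35, adjusted p = 5.79e-05 by edgeR). Cyb5a, a cytochrome of lipid metabolism, had the lower change in cDC1 (-2.12), as did the red cell genes Hbb-bs, Hba-a1 and Hba-a2. For the Rosi effect edgeR passed 0 genes (0%), with 609 at an unadjusted p under 0.05, so the ribosomal change was not shown to differ between cDC1 and cDC2.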

How the data were processed

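The authors deposited raw UMI count matrices of 12 Chromium 3′ v3.1 libraries, which their processing notes tie to Cell Ranger 3.0.2, bcl2fastq 2.19.1.403 and mm10. The iWAT matrices already ended below 22000 UMIs and 25% mitochondrial UMIs, and the eWAT ones did not, so the same limits were set on all. No doublet caller was run. cDC1, gene lists and comparisons were chosen with earlier results of these data known. Counts were summed per library over at least 10 cDC1 (5 under 10% mitochondrial UMIs) and fitted in edgeR 4.0.16 (R 4.3.3) with 6 groups and 6 residual degrees of freedom, because barcodes of a library are not replicates. A call needed a 1.1-fold change and p no larger than 0.05 after Benjamini-Hochberg adjustment over all genes tested. Replicates are separate biological samples per the labels. Shares were tested by edgeR on 9 classes and by exact permutation within depots (two-sided), and cDC1 against cDC2 or mature dendritic cells with the library as a block. DESeq2 1.42.0 was an alternative. Named genes were up to 12 in each direction of largest change among those called, at 50 CPM or more in the higher group and without overlap of libraries, up to 15 in each direction for cDC1 against another class, the 5 of smallest p where fewer than 5 were called, and members of 36 gene lists. Cxx1a, Cxx1b, Gpr141b, Ifi30, Cd209 and Clec7a of those lists were not analysed here. On simulated counts the ob/ob-Veh fit over both depots recovered 17% of genes changed 2-fold and 68% of those changed 4-fold, among 4374 genes.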

Additional observations from a re-analysis of the deposited data

Results flagged for a closer look

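The response of 111 genes to rosiglitazone in cDC1 differed between iWAT and eWAT by edgeR's test of the difference itself. For 106 of them the signed log2 change was higher in iWAT, and 62 of the 111 were ribosomal protein genes. The iWAT side of this test rests on 26 and 28 cDC1 in ob/ob-Veh, where mitochondrially encoded genes gave 11.3 and 12.5% of UMIs, and the part of that share in the difference was not tested. The eWAT side rests on unlike ob/ob-Rosi libraries, whose median ribosomal shares per cDC1 were 10.2 and 28.3%.

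The ob/ob-Veh change of 9 genes differed between cDC1 and cDC2 in the same kind of test, 5 higher and 4 lower in cDC1. The red cell genes Hbb-bs, Hba-a1 and Hba-a2 are among the 4, and in cDC1 of eWAT WT-Veh replicate 2 they stood at 623, 170 and 132 CPM. In cDC2, Hbb-bs went from 11.4 and 14.4 CPM in eWAT WT-Veh to 427 and 723 in eWAT ob/ob-Veh. There Hba-a1 went from 0 and 0 to 208 and 175 CPM, and Hba-a2 from 0 and 0 to 138 and 139.

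The rosiglitazone effect on the share of cDC1 differed between depots by 2.02 on the log2 scale, with eWAT lower and iWAT higher in every ob/ob-Rosi library than in every ob/ob-Veh library of its depot. Without the criterion on Lyve1 and Trem2 the eWAT shares overlapped, at 1.03 and 1.62% in ob/ob-Rosi and 1.58 and 1.17% in ob/ob-Veh. edgeR's test of this difference did not pass (SE 1.36, adjusted p = 0.346).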

How the results depend on the processing

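Counts are genes called. DESeq2 called 16 for ob/ob-Veh against WT-Veh in eWAT and 67 between depots. With library size alone the counts were 922 for ob/ob-Rosi against ob/ob-Veh over both depots, 1100 in iWAT, and 3 for the Rosi interaction with cDC2. Without a filter on low counts they were 12 for ob/ob-Rosi against WT-Veh, 78 and 100 for the eWAT comparisons, 56 between depots, 3109 against cDC2 and 1199 against mature dendritic cells. At 20 or more cDC1 a library, which drops iWAT WT-Veh replicate 1, they were 858 over both depots and 37 and 606 in eWAT and iWAT for ob/ob-Veh, 22 for eWAT ob/ob-Rosi, and 26 and 5 for the interactions. With 2 UMIs of Xcr1 and Clec9a they were 325 and 402 over both depots, 229 and 411 in iWAT and 8 between depots. Without the criterion on Lyve1 and Trem2 they were 828 and 1244 over both depots, 32 and 83 in eWAT, 2740 against cDC2 and 1061 against mature dendritic cells, and cDC1 per cDC2 in iWAT against eWAT moved to -1.79. Thinned to 700 UMIs, with cDC1 chosen again on the thinned barcodes, they were 0 and 0 over both depots, 0 and 0 in eWAT, 10 and 60 in iWAT and 0 between depots, and Fabp4 turned to -0.12 in eWAT ob/ob-Rosi. Without cDC1 that pass another class's rule they were 22 in eWAT ob/ob-Veh and 8 between depots.

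The labels do not say what a replicate number shares, and the deviations of same-numbered libraries correlated at -0.111 to 0.45 over 9 pairs of groups, not above 0.1 in every pair, so the samples were not taken as paired. The highest values, 0.45 between eWAT and iWAT ob/ob-Rosi and 0.445 between iWAT WT-Veh and ob/ob-Rosi, are a hint of sharing from the data and not from the design. With the replicate block eWAT ob/ob-Veh had 19 calls and the depots 2, or 30 with the block across depots. The next settings, the fits without immunoglobulin-rich barcodes, the ratio of cDC1 to cDC2 and the interaction fits with a library left out were chosen after seeing the data. Without ribosomal and mitochondrial genes iWAT ob/ob-Veh had 221 calls. Under 10% mitochondrial UMIs there were 244 and 268 over both depots, 19 in eWAT ob/ob-Veh, 217 and 328 in iWAT and 8 between depots. Without cDC1 of 10 or more C1q UMIs eWAT ob/ob-Veh had 17.

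Leaving out a library in turn gave 77 (without iWAT WT-Veh replicate 2) to 858 (without iWAT WT-Veh replicate 1) calls for ob/ob-Veh over both depots and 159 (without eWAT ob/ob-Rosi replicate 2) to 1070 (without eWAT ob/ob-Rosi replicate 1) for ob/ob-Rosi against ob/ob-Veh. The ranges were 0 to 5 for ob/ob-Rosi against WT-Veh, 4 to 41 and 8 to 28 in eWAT, 1 (without iWAT ob/ob-Veh replicate 1) to 606 and 192 to 789 in iWAT, 1 to 85 between depots, 1128 to 1430 against cDC2, 242 to 429 against mature dendritic cells, and 2 to 133 and 0 to 55 for the interactions. The log2 ratio of shares ranged from -0.23 to 1.39 and -0.22 to -0.0064 over both depots, -0.35 to 1.27 for ob/ob-Rosi against WT-Veh, 0.65 to 1.07 and -1.32 to -0.91 in eWAT, -1.35 to 1.90 (the latter without iWAT WT-Veh replicate 2) and 0.77 to 1.01 in iWAT, and -1.24 to -0.15 between depots. For cDC1 per cDC2 it ranged from -2.77 to -1.28 and 1.99 to 2.47 over both depots, -0.54 to 0.95 for ob/ob-Rosi against WT-Veh, -2.31 to -1.19 and 0.81 to 1.42 in eWAT, -3.79 to -0.81 and 2.87 to 3.83 in iWAT, and -1.59 to -0.60 between depots.

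Of 1946 tests of named genes with a library left out 283 lost the call, as did 128 of 2033 under other settings, and DESeq2 gave no adjusted p in 45 more. The cause of these shifts was not tested. With 17 to 117 cDC1 a library, 17% of simulated 2-fold changes of the ob/ob-Veh comparison over both depots were recovered, so many changes of that size would be missed. Within eWAT alone 7% of 2-fold and 56% of 4-fold changes were recovered, and within iWAT alone 4 and 26%.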

Other observations

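In eWAT ob/ob-Veh replicate 2, 1 cDC1 barcode held 4308 UMIs of Igkc, of 4424 in all 74 cDC1 of that library, and the B cell list summed to 14860 CPM there against 95.6 to 494 CPM in the other 11 libraries.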
